A study of Mus musculus with 4 samples.

Results

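The miRNAs described here are 8 that are best known from neurons: mmu-miR-7a, mmu-miR-7b, mmu-miR-129-3p, mmu-miR-129-5p, mmu-miR-218, mmu-miR-9, mmu-miR-124 and mmu-miR-137. They were chosen by name from the 650 miRNA names of a mouse miRNA array, with every probe of each name taken and whatever their signal. The question was whether they were present in mouse embryonic fibroblasts (MEFs) and whether their signals differed between Lats2 knockout and wild type cells. Lats2 encodes a Ser/Thr kinase of the Hippo pathway. Total RNA came from untreated MEFs of C57BL/6J origin, cultured in serum-containing medium. The Lats2-/- cells (KO) were clone #112-C at population doubling levels (PDL, the number of doublings in culture) 70 and 96, called KO 1 and KO 2. The Lats2+/+ cells (WT), from a littermate, were clone #112-K at PDL 68 and 90, called WT 1 and WT 2. Each sample was labelled with Cy3 and hybridised to 1 array, giving 4 arrays on 1 slide. Each genotype was therefore 1 clone read at 2 PDLs: a difference between genotypes cannot be told apart from a difference between clones, and the error used in the tests is the spread between the PDLs of a clone. A miRNA array does not measure Lats2 mRNA, so the genotype labels were not checked here.

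A miRNA is a short RNA that guides Argonaute proteins to messenger RNAs, mostly by pairing of its seed, bases 2 to 8 from the 5′ end, and lowers their translation and stability. miR-124 and miR-9 are abundant in the brain and promote neuronal differentiation, miR-137 acts in neuronal maturation, and miR-129 strands are enriched in the brain. miR-7 is found in neurons and in endocrine cells, and miR-218 is abundant in motor neurons.

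Mature sequences from RefSeq (build GRCm38.p6) were matched to the array through the probes, each of which is the reverse complement of part of its target, and 7 of the 8 names matched 1 sequence. They are shown because the seeds set which members are alike and because the 7a and 7b strands are nearly identical. The capitals mark the seed.
miR-7a: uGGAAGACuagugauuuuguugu
miR-7b: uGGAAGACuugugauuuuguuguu
miR-129-3p: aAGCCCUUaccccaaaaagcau
miR-129-5p: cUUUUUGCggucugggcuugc
miR-218: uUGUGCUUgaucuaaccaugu
miR-9: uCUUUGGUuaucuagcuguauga
miR-137: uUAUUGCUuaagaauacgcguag
miR-7a and miR-7b shared a seed and differed by A10U (miR-7a base, position from the 5′ end, miR-7b base) over 23 compared bases, with 1 further base at the 3′ end of miR-7b. No other pair of the 7 shared a seed, the 2 strands of the miR-129 hairpins included.

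The mature miR-7a sequence lies at chr13:58392841-58392863 on the minus strand in Mir7-1, within the bounds of Hnrnpk, which encodes an RNA-binding protein, and at chr7:78888295-78888317 on the plus strand in Mir7-2. miR-7b lies at chr17:56243017-56243040 on the plus strand. The miR-129-3p sequence is the one of Mir129-2 at chr2:94241376-94241397 on the minus strand, within the long non-coding RNA gene Mir670hg. miR-129-5p comes from the same hairpin at chr2:94241419-94241439 and also from Mir129-1 at chr6:29022624-29022644 on the plus strand. miR-218 lies on the plus strand at chr5:48223966-48223986 within the bounds of Slit2 and at chr11:35616840-35616860 within those of Slit3, genes of axon guidance ligands. The array cannot tell the loci of miR-7a, miR-129-5p or miR-218 apart, since their mature sequences are identical.

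Of the 8 members, 3 were above background in these fibroblasts on every array, miR-7a, miR-129-3p and miR-218. miR-129-5p was above it on 1 array only, and miR-7b, miR-9, miR-124 and miR-137 on none. A miRNA counted as above background here when a share of more than 0.5 of the unflagged spots of its brightest probe carried the scanner software's "well above background" flag. By this rule 3 members were above background on KO 1, KO 2 and WT 1 and 4 on WT 2, or 37.5%, 37.5%, 37.5% and 50% of the members, beside 24.2%, 24.8%, 19.2% and 19.8% of all 650 names. The software's own detection flag for a miRNA gave 3, 3, 4 and 4 members, the added one on WT 1 being miR-129-5p.

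**Figure D1:**
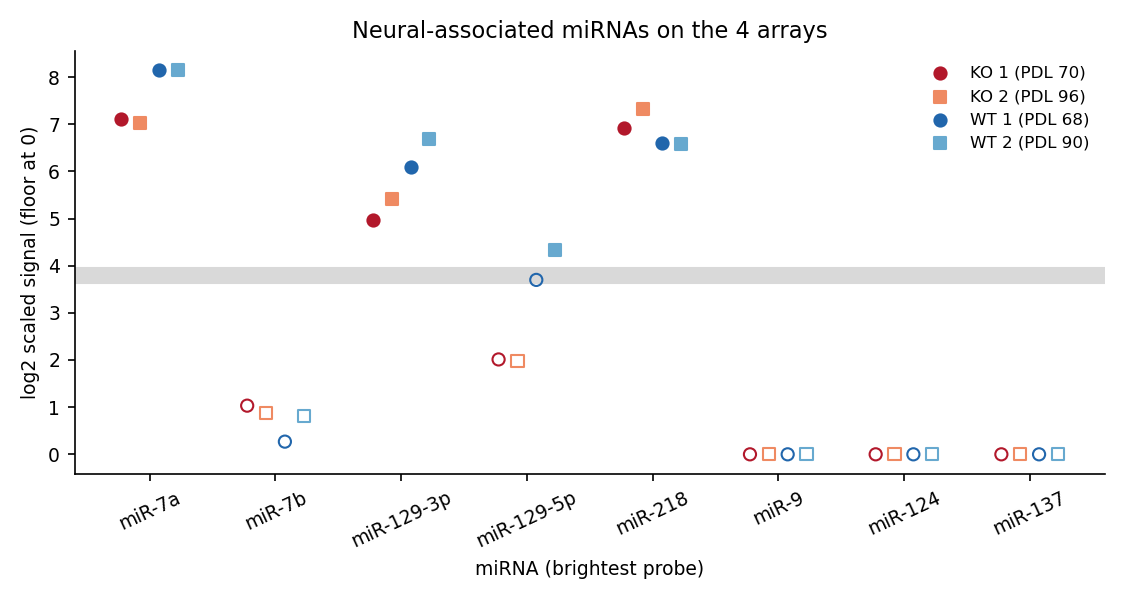
The log2 scaled signal (vertical axis, floor at 0) of the brightest probe of each member on each array, with KO in red and WT in blue, circles for the lower and squares for the higher PDL. Filled symbols are well above background, and the grey band spans the lowest such signals on the 4 arrays (3.64 to 3.95); miR-7a and miR-129-3p are lower on both KO arrays, and 4 members are empty symbols throughout.

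The array's 39 probe sets for viral miRNAs gave a measure of background in the same hybridisations. Their median signal, unscaled and on the linear scale of the scanner software, was -3.58 and -4.00 units on KO 1 and KO 2 and -4.22 and -0.603 units on WT 1 and WT 2. A pair of viral names were nevertheless well above background. The probe of mcmv-miR-M23-1-5p was so on all 4 arrays, at 55.5, 50.9, 42.2 and 38.5 units on KO 1, KO 2, WT 1 and WT 2, and that of mghv-miR-M1-2 on WT 2 only, at 20.5 units. The members were compared with these by their brightest probes. Those of miR-7a and miR-218 were brighter than every viral probe on every array. That of miR-129-3p was brighter than all 39 on both WT arrays and than all but mcmv-miR-M23-1-5p on both KO arrays. The shorter probes of miR-7a and miR-129-3p were dimmer than that of mcmv-miR-M23-1-5p on every array. miR-129-5p, at 18.1 units on WT 2, was dimmer there than both of these viral probes.

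In the fibroblasts the labels describe, miRNAs known from mesenchymal cells were present and those of other tissues mostly were not. Of a list of 8 fibroblast and mesenchymal miRNAs, 7 were well above background on each array, led by miR-21, and miR-145 was not. On no array was any of 1 liver, 6 blood, 2 endothelial or 8 epithelial miRNAs well above background, miR-122, miR-223, miR-126-3p and miR-200a among them. Of 6 muscle miRNAs, miR-206 alone was above it, at 4.76 to 5.12 on the log2 scale.

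The KO against WT comparison was fitted with limma over the 159 miRNA names flagged well above background on each of the 2 KO arrays, each of the 2 WT arrays or all 4, with Benjamini-Hochberg adjustment over all 159. Signals were scaled between arrays and compared as log2. Of the 8 members 3 entered the fit: miR-7a and miR-129-3p were lower in KO, and miR-218 did not pass the threshold of adjusted p under 0.05. Over all tested names 57.9% were called, 43.4% as higher in KO and 14.5% as lower. Among the 115 names above background on all 4 arrays, which include the 3 members, 52.2% were called, 33.9% as higher and 18.3% as lower. The median difference over the 3 members was -1.08, which is the miR-7a value, and miR-218 went the other way at 0.53. The median over all 159 was 0.31 and that over the 115 was 0.17. In each of the 3 the KO and WT values did not overlap, which was also so for 79.9% of all tested names and 73% of the 115, so that this count says little about the members. In the reported fit both members called lower also passed a fold change of 2, but with normexp background correction neither did. Of the 159, 47 were called in the reported fit and passed a fold change of 2 in either direction, lower or higher in KO.

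**Figure D2:**
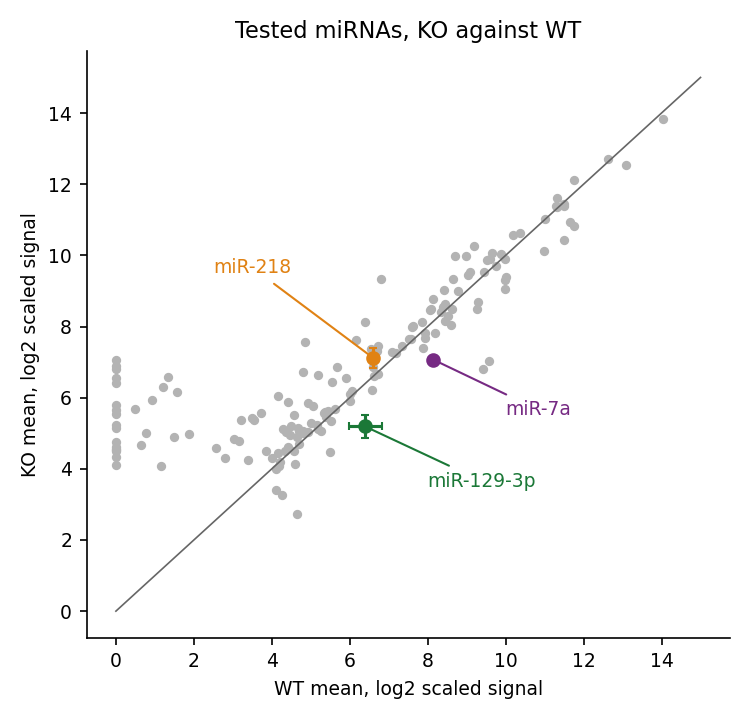
Mean log2 scaled signal in KO (vertical axis) against WT (horizontal axis) for the 159 tested miRNAs, with the line of equality. The 3 tested members are coloured, with error bars of 1 SD over the 2 arrays of a genotype (smaller than the symbol for miR-7a); points at 0 are at the floor, miR-7a and miR-129-3p lie under the line and miR-218 lies above it.

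miR-7a had the smallest SE of the 3 tested members, and its signal in KO cells was under that in WT cells by more than the spread of either clone. Its brightest probe read 7.11 and 7.02 on KO 1 and KO 2 and 8.14 and 8.15 on WT 1 and WT 2 in log2 scaled signal. The KO arrays were both lower, and on this probe each clone gave nearly the same value at its lower and higher PDL. The means were 7.07 ± 0.061 in KO and 8.15 ± 0.0049 in WT (SD, n = 2 each), a difference of -1.08 ± 0.06 (SE, 95% interval -1.28 to -0.88) or 2.11-fold higher in WT (limma adjusted p = 0.0018). This was the 5th largest decrease among the 159 tested names and the 4th among the 115 that were well above background on all 4 arrays. The difference kept its direction and its call in all 18 alternatives run, with values of -1.48 to -0.83.

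The array reads miR-7a with 2 probes that differ by 1 base, which is shown in capitals.
shorter miR-7a probe: acaacaaaatcactagtcttc
longer miR-7a probe: acaacaaaatcactagtcttcC
The longer probe pairs with bases 2 to 23 of miR-7a and gave unscaled signals of 144, 143, 271 and 255 units on KO 1, KO 2, WT 1 and WT 2. The shorter, which starts at base 3, gave 15.6, 16.8, 38.7 and 22.0 units and was well above background on 3 arrays, KO 1 being the exception. Its log2 difference, KO minus WT, was -1.06 against -1.08 for the longer probe. That value averages unlike WT arrays. In log2 scaled signal the shorter probe read 3.91 and 3.93 on KO 1 and KO 2, but 5.34 on WT 1 and 4.61 on WT 2. On WT 2 its spots varied widely (SD 10.2 units over 10 spots).

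miR-7b was read on the same arrays by probes that are nearly identical to those of miR-7a. The 22-base probes of the pair are shown with the differing base in capitals.
miR-7a probe: acaacaaaatcacTagtcttcc
miR-7b probe: acaacaaaatcacAagtcttcc
The probes differed by T14A (miR-7a probe base, position from the 5′ end, miR-7b probe base). No probe of miR-7b was well above background on any array. Its brighter probe, a base longer still, read 2.13 and 2.02 units on KO 1 and KO 2 and 1.15 and 1.57 on WT 1 and WT 2, and 3 to 10 of the 39 viral probe sets were brighter on each array. No difference between genotypes can be read from such values. miR-7a*, the array's name for the other strand of miR-7a, did not rise above background on any of the 4, with log2 values of 2.11, 1.68, 2.47 and 2.48. Which miR-7a hairpin its probes read was not checked.

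**Figure D3:**
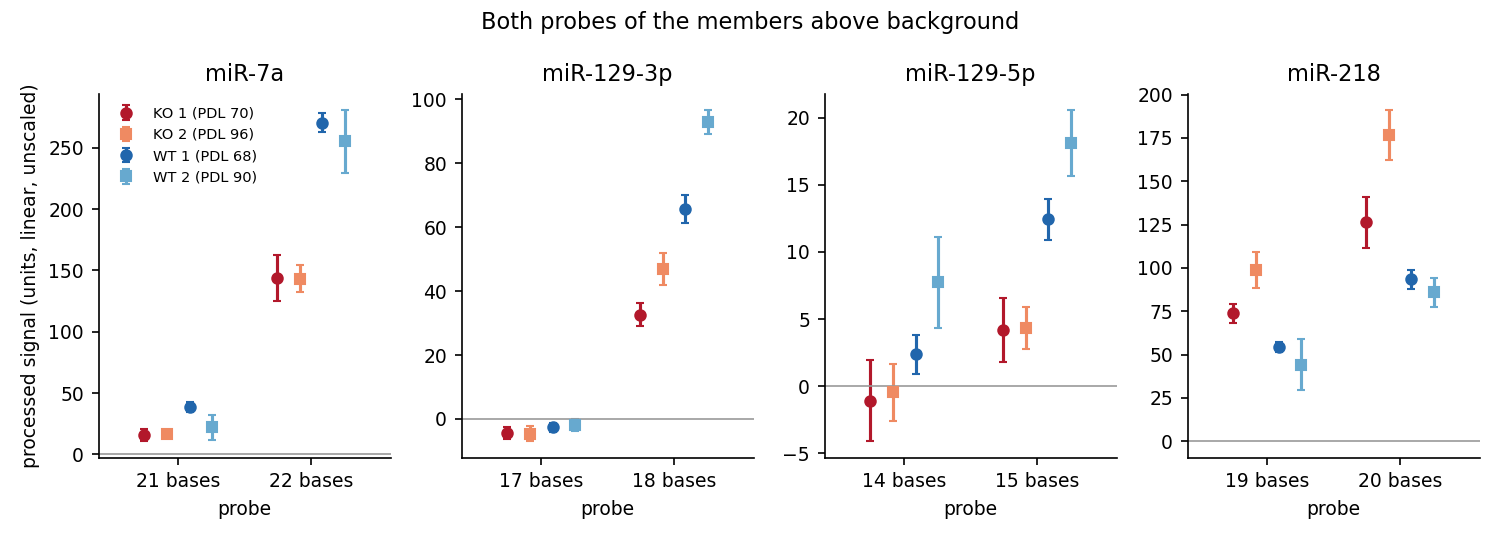
Unscaled processed signal (linear units) of the shorter and the longer probe of miR-7a, miR-129-3p, miR-129-5p and miR-218 on each array, as the mean with 1 SD over the unflagged spots, 8 to 10 per probe. For miR-129-3p the 17-base probe lies below 0 on all 4 arrays while the 18-base probe reads 32.7 to 92.9 units; both miR-218 probes are higher in KO.

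The miR-129-3p and miR-129-5p signals both read lower in KO cells, but only miR-129-3p was bright enough to enter the fit. miR-129-5p was above background on WT 2 only. miR-129-3p read 4.97 and 5.41 on KO 1 and KO 2 and 6.10 and 6.69 on WT 1 and WT 2 in log2 scaled signal. Both KO arrays were lower than both WT arrays, and within each clone the array at the higher PDL was the brighter. The means were 5.19 ± 0.31 in KO and 6.40 ± 0.42 in WT (SD, n = 2 each), a difference of -1.21 ± 0.29 (SE, 95% interval -2.09 to -0.32) or 2.31-fold higher in WT (limma adjusted p = 0.042). The size moved with the processing, from -0.60 with normexp background correction to -1.63 with total signals and -1.85 after quantile normalization. It ranked 4th among the decreases of all 159 tested names and 3rd among the 115. The call was lost without any of 3 arrays: without KO 1 the difference was -0.99 (limma adjusted p = 0.26), without KO 2 it was -1.42 (adjusted p = 0.18) and without WT 2 it was -0.91 (adjusted p = 0.061), while without WT 1 it held (-1.5, adjusted p = 0.022).

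With PDL order in the model, the miR-129-3p difference between genotypes was the same and its limma adjusted p was 0.013. The higher PDL exceeded the lower by 0.44 in KO and 0.59 in WT on the log2 scale, in the fit 0.52 ± 0.087 (SE). This difference had an unadjusted limma p of 0.019 and an adjusted p of 0.83, so it was not called. Over all 159 names, 0% were called between higher and lower PDL by limma, and 8 had an unadjusted p under 0.05.

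The signal of miR-129-3p came from 1 of its 2 probes, and the shorter lacked only the base in capitals.
shorter miR-129-3p probe: atgctttttggggtaag
longer miR-129-3p probe: atgctttttggggtaagG
The longer probe, which pairs with bases 5 to 22, gave 32.7, 46.8, 65.6 and 92.9 units on KO 1, KO 2, WT 1 and WT 2. The shorter was well above background on no array, at -4.39, -4.68, -2.59 and -1.80 units. Such a split is not rare on these arrays: of the 115 miRNAs with a probe well above background on all 4 arrays and at least 1 other probe, 24 (20.9%) had another probe that was above it on none. Which probe is nearer the true level was not tested.

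miR-129-5p was near the limit of what the arrays could measure. Its brightest probe gave 4.20 and 4.32 units on KO 1 and KO 2 and 12.4 and 18.1 units on WT 1 and WT 2, unscaled. The well above background flag was set for 0 of 10 spots on each KO array, for 2 of 10 on WT 1 and for 9 of 10 on WT 2. The WT signals were thus the higher ones, with 1 of the 2 WT arrays above background, and the name did not enter the reported fit. The software's detection flag was set for miR-129-5p on both WT arrays and on neither KO array. With that flag as the filter, miR-129-5p was tested and called lower in KO (limma adjusted p = 0.010). With no filter on dim miRNAs it was tested and not called (limma adjusted p = 0.10). On the log2 scale the measured means were 1.99 in KO and 4.02 in WT, and the KO signal was not well above background. With the KO mean set at the lowest signal well above background on each KO array, 3.78, the WT mean was 1.17-fold higher. That WT mean includes WT 1, at 3.70, which was itself not above background and lay under 3.78. The 1.17-fold value therefore rests on WT 2, at 4.33, and is not a firm lower bound. The measured log2 difference was -2.02, and it was -0.39 with normexp background correction and -2.99 with the software's total signal per miRNA, so its direction was the same in these 3 settings and its size was not settled.
shorter miR-129-5p probe: gcaagcccagaccg
longer miR-129-5p probe: gcaagcccagaccgC
These are short probes, and the shorter of them gave -1.09, -0.469, 2.37 and 7.72 units, well above background on no array and again higher in WT.

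miR-218 read higher in KO cells on both probes, but the difference did not pass the threshold. Its log2 scaled signal was 6.92 and 7.32 on KO 1 and KO 2 and 6.61 and 6.58 on WT 1 and WT 2. KO 2 was the highest array, and the WT arrays lay closer together than the KO arrays. The means were 7.12 ± 0.29 in KO and 6.59 ± 0.022 in WT (SD, n = 2 each), a difference of 0.53 ± 0.17 (SE, 95% interval 0.02 to 1.04) or 1.44-fold (limma adjusted p = 0.069). The median of all tested names was itself shifted by 0.31, which leaves 0.22 for miR-218 relative to it. Over the 115 names above background on all 4 arrays, miR-218 among them, the median was 0.17, which leaves 0.36. Leaving out 1 array gave differences of 0.73 without KO 1, 0.33 without KO 2, 0.54 without WT 1 and 0.51 without WT 2. Relative to the median of all tested names in each of these fits they were 0.39, -0.0027, 0.16 and 0.23 in the same order.
shorter miR-218 probe: acatggttagatcaagcac
longer miR-218 probe: acatggttagatcaagcacA
Here both probes were well above background on all 4 arrays. The longer gave 126, 177, 93.4 and 85.8 units on KO 1, KO 2, WT 1 and WT 2 and the shorter 73.9, 98.6, 54.3 and 44.2 units, with log2 differences of 0.53 and 0.59. The strands named miR-218-1* and miR-218-2*, from the Slit2 and Slit3 loci, were well above background on no array, so the data do not show which locus gave the signal.

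The size of the miR-218 difference and its call moved with the scaling between arrays and the background correction. It was 0.74 (limma adjusted p = 0.046) with no scaling, 0.31 (adjusted p = 0.039) with normexp background correction, 0.18 (adjusted p = 0.40) after quantile normalization and 0.13 (adjusted p = 0.54) after scaling by the median. All 18 alternatives kept it above 0.

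**Figure D4:**
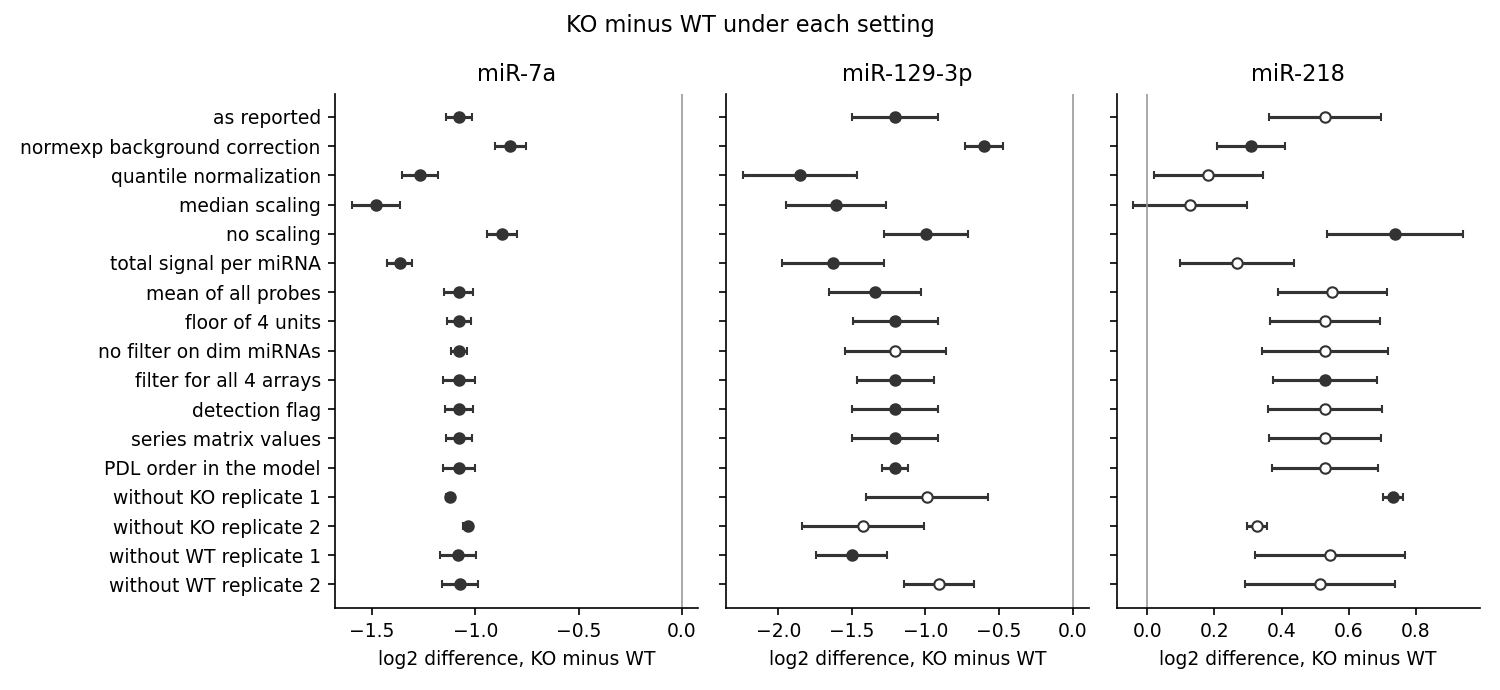
Log2 difference, KO minus WT (horizontal axis), with its SE, for the 3 tested members under the reported setting and 16 alternatives fitted with limma (rows). Filled symbols have an adjusted p under 0.05; miR-7a is filled in every row, miR-129-3p loses its call in 4 rows and miR-218 gains one in 4.

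miR-9, miR-124 and miR-137, which are abundant in neural tissue, were not detectable in either genotype. The brightest probe of miR-9 gave -0.966 and -1.74 units on KO 1 and KO 2 and -1.39 and -1.68 on WT 1 and WT 2. For miR-124 the values were -5.41, -5.83, -5.33 and -5.36 units in the same order. Those of miR-137 were -3.43, -2.47, -2.38 and -4.78 units. All 12 values were below 0 after background subtraction and inside the range of the viral probe sets, so no fold change is given. miR-9* and miR-124*, the other strands of their hairpins, were also well above background on no array.

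A further list of 12 miRNAs known from neural tissue was read the same way, and 1 was well above background and tested. This was miR-212, from the same cluster as miR-132, at 5.03 and 5.07 on KO 1 and KO 2 and 5.25 and 5.28 on WT 1 and WT 2. Its values did not overlap, but the difference of -0.21 was not called (limma adjusted p = 0.053), and none of the list was called in either direction. The other 11, among them miR-128, miR-138 and miR-219, were well above background on no array. The software's own detection flag was nevertheless set for miR-128 on both KO arrays and on neither WT array. miR-132 was at the floor in both KO samples and read 2.65 and 2.85 in WT, while miR-128 read 3.51 and 3.52 in KO and 2.53 and 2.27 in WT, all of them under the lowest signals well above background.

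The miRNAs whose pattern over the 4 arrays came nearest to each tested member were found as those with the smallest Euclidean distance between log2 signals centred on their own means. For miR-7a these were miR-23a (distance 0.164) and miR-27a (0.188), and miR-23a read 10.81 and 10.82 in KO and 11.78 and 11.73 in WT. For miR-129-3p they were miR-27a (0.405) and miR-222 (0.428), and for miR-218 miR-362-3p (0.176) and miR-362-5p (0.236). With 4 arrays in 2 clones these distances describe the samples and carry no test.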

How the data were processed

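The authors hybridised Cy3-labelled total RNA to 4 Agilent mouse miRNA arrays and deposited, per array, Feature Extraction 10.5.1.1 output whose processed signal is a background-subtracted intensity on a linear scale, not normalized between arrays. The deposited series table holds the same intensity, to within 0.495%. Per the file headers, flags mark spots well above background, outliers and detected miRNAs, and a total signal is given per miRNA. The arrays correlated at r = 0.994 within KO, 0.986 within WT and 0.811 to 0.840 between genotypes, across miRNAs, which are not independent replicates.

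From these files, control spots and 276 to 395 flagged outlier spots per array were left out, and the 13000 miRNA spots were averaged over 1857 probes. No spot was saturated. Signals were divided by each array's 75th percentile (taken over 192 probes that passed the background flag on all 4; 458 to 562 units), returned to the mean scale, floored at 1 unit and taken to log2. The brightest probe stood for a miRNA, and miRNAs above background on both arrays of a genotype were tested two-sided with limma 3.58.1 in R 4.3.3. The fit was checked on simulated data. Names are those of the array design.

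All 8 members were named whatever their values, with their other strands, lists of neural and cell type markers, and the 2 nearest patterns for each member above background on all arrays. The members and lists were chosen with earlier results of these data known. Alternatives covered background correction, scaling, probe summary, floor, filter, PDL, the methods' t-test and leaving out each array. The precision is limited by the number of arrays.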

Additional observations from a re-analysis of the deposited data

Results flagged for a closer look

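The change from the lower to the higher PDL ran in opposite directions in the KO and WT clones for 2 of the 3 tested members. For miR-218 it was 0.40 on the log2 scale in KO and -0.031 in WT. For miR-7a it was -0.086 in KO and 0.0069 in WT. The signs were also opposite for miR-129-5p (-0.041 in KO, 0.63 in WT) and miR-7b (-0.16 and 0.54), whose signals were at or near background. Each is 1 difference between 2 arrays of 1 clone, so the difference between the clones was not tested. The share of all 159 tested names with opposite signs was not counted, so the 2 of 3 says little about the members.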

How the results depend on the processing

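The decrease of miR-7a was called in all 18 alternatives, including every array left out in turn (-1.12 to -1.04). That of miR-129-3p kept its direction in all 18 and lost its call in 6: without KO 1, KO 2 or WT 2, with no filter on dim miRNAs (limma adjusted p = 0.28), and by the methods' t-test before and after Benjamini-Hochberg. miR-218 was called in 4 of 18, with no scaling, normexp, a filter for all 4 arrays (limma adjusted p = 0.045) and without KO 1 (0.73, adjusted p = 0.031). In fits without 1 array the lone sample is assumed to vary like the other clone. Of the 159 tested miRNAs 92 were called in all, against 60 of all 650 names with no filter and, of the 159, 37 to 89 when an array was left out (39 without KO 1, 37 without KO 2), 39 by the methods' t-test at their fold change and unadjusted threshold and 56 after Benjamini-Hochberg. Of the 92 calls 75% were higher in KO, and 54.8% after quantile normalization, 51.4% with median scaling, 60.6% with total signals and 86.0% with no scaling, as the median difference over all tested miRNAs moved from 0.31 to 0.12, -0.09, 0.04 and 0.52. The call count for PDL was 0 in all 4 alternatives. Scaling by the 75th percentile over all probes gave no value, since that percentile was -0.104 units on WT 1 and 2.90 to 4.66 units on the other arrays. Slide and scan as a block were not run because all arrays shared 1 slide and 1 scan time. The labels give no replicate numbers, so no block by number was fitted. PDL order in the model, which sets the lower PDL of both clones against the higher, gave 70 calls. Members near background are limited by signal, miR-129-5p above all, which was called with the detection flag as the filter and not with no filter.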
